A study of Mus musculus with 39 samples.

Results

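The comparison set testes of mice that lost Prkar1a through Sf1:Cre (prKO) against testes of mice that lost it through Amh:Cre (srKO), both taken at 2 weeks of age. The arrays were chosen by their titles, which gave 4 prKO and 4 srKO arrays out of 39 in the whole series. Each array measured RNA of whole testis on an Affymetrix GeneChip platform. The prKO mice carried Sf1:Cre and the srKO mice Amh:Cre, and both carried Prkar1a alleles flanked by loxP sites on both chromosomes. Beside them stood 4 testes of mice with Cyp11a1:Cre and the same floxed alleles (lrKO) and 8 testes of wild-type littermates (WT), also at 2 weeks. They entered the estimate of the spread and are given here as ranges of levels. The lines compared differ in the Cre transgene and may differ in genetic background, and the labels do not tie the WT littermates to a line, so effects of Cre driver and of line cannot be told apart. The titles call the arrays biological replicates, but the labels do not state that the 4 arrays of a group came from separate animals. The p-values therefore measure the spread between these samples.

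Prkar1a encodes the type I alpha regulatory subunit of protein kinase A (PKA), the kinase through which cyclic AMP (cAMP) acts. The regulatory subunits hold the catalytic subunits inactive until cAMP binds, and loss of this subunit leaves the kinase active without a hormone signal. In Leydig cells, the steroid-producing cells between the tubules, luteinizing hormone acts through cAMP and PKA to bring cholesterol into mitochondria and to switch on the steroidogenic enzymes, and adrenocorticotropic hormone does the same in the adrenal cortex. Follicle-stimulating hormone uses the same route in Sertoli cells, the supporting cells of the tubules. Sf1:Cre recombines early, in the somatic progenitors shared by gonads and adrenal cortex that give rise to Sertoli and Leydig cells alike, and Amh:Cre recombines in Sertoli cells. The question was what loss in the precursors does beyond loss in Sertoli cells.

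The deposited values were log2 intensities normalized by the robust multi-array average (RMA). They were tested with limma across 19007 genes, and a gene is called here where its p-value after Benjamini-Hochberg adjustment was under 0.05. Between prKO and srKO at 2 weeks 2234 genes were called, 11.8% of those tested. Of them 1312 were higher in prKO (6.9%) and 922 were lower (4.85%). Among called genes 217 were at least 2-fold higher and 27 at least 2-fold lower. The median log2 difference over all genes tested was -0.018. After each array was centred on its own median the calls numbered 2841, with 1062 higher and 1779 lower, so the share of higher calls was 37.4% in place of 58.7%. That setting moved the median log2 difference of all genes to -0.0778. Without any test, 3766 genes (19.8%) had no overlap between the 4 prKO and the 4 srKO arrays, 2018 with prKO higher (10.6%) and 1748 with prKO lower (9.2%).

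One array stood apart. The srKO replicate 4 correlated with the other srKO arrays across genes at 0.975 to 0.984, while replicates 1 to 3 correlated with each other at 0.991 to 0.995, and genes are not independent replicates. This array correlated more closely with the 4 lrKO arrays (0.988 to 0.991) and with WT replicates 6 to 8 (0.991 to 0.992) than with its own group. What sets it apart was not tested. Its meiotic prophase genes had the highest mean level of the 8 arrays and its matrix genes the lowest of the 4 srKO arrays. Without this array 1858 genes were called, 1013 higher and 845 lower in prKO, and 1644 of the 2234 calls remained in the same direction. Without prKO replicate 4, the array with the highest steroidogenic level, 1415 genes were called. The extraction protocol mentions adrenal tissue, whereas the titles and tissue labels give testis. In the 8 arrays the mean log2 level was 9.23 to 9.59 over 21 Sertoli cell genes and 8.75 to 9.46 over 23 meiotic prophase genes, so the defining genes of testis were present in each.

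Prkar1a, the targeted gene, had log2 intensities of 8.04, 8.28, 8.33 and 8.17 in prKO testes, against 8.48, 8.36, 8.52 and 8.64 in srKO testes. Every prKO array lay below every srKO array, and every srKO array lay below the 8 WT arrays (8.84 to 9.14). The prKO level was 1.23-fold lower (log2 difference -0.29 ± 0.08, adjusted p = 0.025). That call did not hold when prKO replicate 1 was left out (-0.24), nor without prKO replicate 4 (-0.28), without srKO replicate 3 (-0.29) or without srKO replicate 4 (-0.25), where the adjusted p ran from 0.059 to 0.088. The place of the probe set relative to the deleted part is not given in the sources used here, and cells without Cre contribute their RNA, so the value does not measure recombination. In whole-testis RNA fewer cells of a type and less RNA per cell cannot be told apart, which holds for every gene below.

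Genes of steroid synthesis, cystine uptake, matrix and innate defence led the rises, of which the 12 largest among named genes, small RNAs apart, are given. Cyp21a1, the steroid 21-hydroxylase of the adrenal cortex, headed them, with log2 intensities of 8.68, 7.77, 8.16 and 9.83 in prKO testes, against 4.58, 4.60, 4.53 and 4.49 in srKO testes. Its 4 srKO arrays and its WT arrays (4.26 to 4.61) lay below 4.62, the lower quartile of all values, whereas every prKO array was far above them. It was at least 15.9-fold higher in prKO (log2 difference 4.06 ± 0.26, adjusted p = 1.2e-08), the bound being set against 4.62. Cyp11a1, which makes pregnenolone from cholesterol in the first step of steroid synthesis, had log2 intensities of 12.07, 11.86, 11.88 and 12.26 in prKO testes, against 9.41, 9.17, 9.13 and 9.37 in srKO testes. The prKO arrays stood close together and well above all srKO and WT arrays (8.43 to 9.50). The fold was 6.72 (log2 difference 2.75 ± 0.20, adjusted p = 6.1e-08). With the probe sets of Cyp11a1 averaged in place of the brightest one, the log2 difference was 1.46 (adjusted p = 3.3e-07).

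Slc7a11 followed Cyp21a1 in size. It encodes the cystine and glutamate exchanger that supplies cysteine for glutathione. Its log2 intensities were 8.08, 7.63, 8.01 and 8.50 in prKO testes, against 5.09, 5.23, 4.91 and 4.96 in srKO testes. The prKO arrays did not approach the srKO arrays or the WT range (4.79 to 5.56), and the gene was 8.05-fold higher (log2 difference 3.01 ± 0.20, adjusted p = 2.2e-08). With the gene's probe sets averaged in place of the brightest one, the log2 difference was 1.63 (adjusted p = 1.4e-08), so the size depends on the probe set. Its promoter is shown because the gene is a known target of the amino acid stress response, and capitals mark the letters TGATGNAA of the amino acid response element on either strand in the 250 bases before the start (RefSeq, GRCm38.p6, chr3:50443614-50443863, minus strand, 5′ to 3′).
Slc7a11: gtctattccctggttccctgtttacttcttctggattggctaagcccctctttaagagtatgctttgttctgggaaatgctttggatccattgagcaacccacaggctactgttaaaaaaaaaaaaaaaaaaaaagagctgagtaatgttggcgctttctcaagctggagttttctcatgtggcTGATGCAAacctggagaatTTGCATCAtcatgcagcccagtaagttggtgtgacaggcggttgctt
The element occurs at 66 bases before the start and, on the other strand, at 47 bases before it. It was found in 3.452% of 32851 mouse promoter windows of this length, and among the 12 largest rises, 9 of which had a window, in Slc7a11 alone. The form was added after the promoter letters had been seen, so the match in Slc7a11 cannot be weighed against that share. A match is a description of the letters and not of a factor bound there.

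The other large rises fell into a few roles. Lcn2, a secreted siderophore-binding protein of innate defence (9.83, 9.41, 9.54 and 10.74 in prKO testes, against 7.62, 7.13, 6.02 and 7.03 in srKO testes, as log2 intensities), rose 7.62-fold (2.93 ± 0.46). Il33, an alarmin cytokine, rose 6.21-fold (2.64 ± 0.35), and the serine protease inhibitor gene Serpina3n rose 7.07-fold (2.82 ± 0.53). The terminal complement gene C7 rose 6.87-fold (2.78 ± 0.36). In lipid handling, Scd1, the stearoyl-CoA desaturase, rose 6.8-fold (2.76 ± 0.49) and Cd36, a fatty acid transporter, 6.07-fold (2.60 ± 0.28). Gpx3, the secreted glutathione peroxidase, had log2 intensities of 9.02, 8.72, 8.56 and 9.61 in prKO testes, against 6.75, 6.34, 6.51 and 6.19 in srKO testes and rose 5.78-fold (2.53 ± 0.30). Col6a5, a collagen VI chain, rose 7.25-fold (2.86 ± 0.33) and the surface protein gene Ly6d 5.97-fold (2.58 ± 0.22). Adjusted p for these 9 genes ran from 2.6e-07 (Ly6d) to 0.0019 (Serpina3n), and prKO and srKO arrays did not overlap in any of them. In 10 of the 12 rises all prKO arrays also lay above all 8 WT arrays, the exceptions being Serpina3n and Scd1, and the same held for 569 of the 1312 genes called higher. Choosing genes by their prKO and srKO arrays favours such an order, in rises and falls alike, and its share among all genes was not counted. All 12 were called under each of the 18 other settings tried, those that left out 1 array among them.

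**Figure D1:**
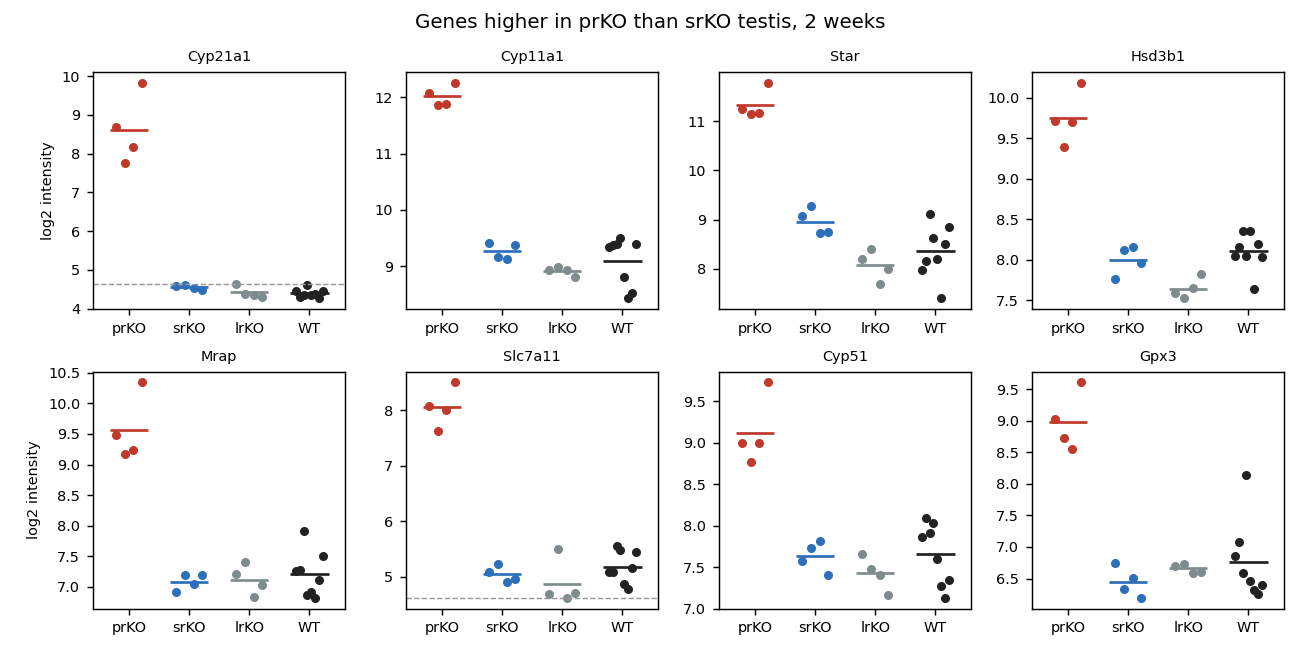
Log2 intensity of 8 genes in each array at 2 weeks, by genotype (prKO and srKO, 4 arrays each; lrKO, 4; WT, 8). Points are arrays, bars are group means, and the dashed line marks 4.62, the lower quartile of all values. In each gene the 4 prKO points lie above all srKO, lrKO and WT points.

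The steroidogenic pathway rose at most of its steps. Of 10 tested genes of cholesterol import and steroid synthesis 7 rose and 0 fell, with a median log2 difference of 1.35, against -0.018 for all genes. Star, which carries cholesterol to the inner mitochondrial membrane, had log2 intensities of 11.24, 11.14, 11.17 and 11.78 in prKO testes, against 9.07, 9.28, 8.73 and 8.75 in srKO testes. The prKO arrays were well above the srKO arrays, and the gene rose 5.2-fold (log2 difference 2.38 ± 0.27, adjusted p = 1.2e-05). Hsd3b1, which turns pregnenolone into progesterone, had log2 intensities of 9.71, 9.40, 9.70 and 10.19 in prKO testes, against 7.76, 8.12, 8.15 and 7.96 in srKO testes and rose 3.36-fold (log2 difference 1.75 ± 0.15, adjusted p = 4.3e-07). Fdx1, the ferredoxin that feeds electrons to the mitochondrial enzymes, rose 2.36-fold (log2 difference 1.24 ± 0.16, adjusted p = 3.3e-05). These and Cyp11a1 were called in every fit that left out 1 array.

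Cyp17a1, the 17-hydroxylase on the way to androgens, was 2.75-fold higher (log2 difference 1.46 ± 0.40, adjusted p = 0.021). Hsd3b6, the 3-beta-hydroxysteroid dehydrogenase isoform of adult Leydig cells, had log2 intensities of 8.10, 8.13, 8.49 and 8.00 in prKO testes, against 7.49, 6.20, 5.68 and 6.29 in srKO testes. The groups did not overlap, but the WT arrays (7.11 to 9.90) and the lrKO arrays (7.69 to 9.46) spanned the prKO level, and the adjusted p was 0.031. Akr1c14, which reduces steroids, was at 0.42 ± 0.11 (adjusted p = 0.017). Cyp17a1 was not called without prKO replicate 4 or srKO replicate 4 (1.26 to 1.38, adjusted p = 0.061 to 0.066), and Akr1c14 was not called without prKO replicate 1 or srKO replicate 1 (0.36 to 0.38, adjusted p = 0.053 to 0.061). Hsd3b6 was called without srKO replicate 1 but in none of the other 7 fits that left out 1 array (adjusted p = 0.059 to 0.097). The mean level of the 10 genes was 9.07, 9.04, 9.15 and 9.39 in prKO testes, against 8.03, 7.98, 7.82 and 7.73 in srKO testes, so all prKO arrays exceeded all srKO arrays. The WT arrays lay at 7.63 to 8.40 and the lrKO arrays at 7.46 to 8.01.

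Markers that usually set the adrenal cortex apart were higher in part. Of 8 tested adrenal cortex genes 4 rose and 0 fell. The other 4 were As3mt (0.22), Hsd3b2 (0.10), Nr0b1 (-0.16) and Cyp11b2 (-0.17), not called (adjusted p = 0.24 to 0.75). Mrap, the partner that takes the adrenocorticotropic hormone receptor to the cell surface, had log2 intensities of 9.48, 9.18, 9.24 and 10.34 in prKO testes, against 6.92, 7.20, 7.04 and 7.20 in srKO testes. No srKO array came near the prKO range, and the gene rose 5.55-fold (log2 difference 2.47 ± 0.23, adjusted p = 1.3e-06). Susd3 rose 1.34-fold (log2 difference 0.42 ± 0.09, adjusted p = 0.0034). Cyp11b1, the glucocorticoid-making 11-beta-hydroxylase, stood at low log2 intensities of 4.72, 5.13, 4.97 and 5.35 in prKO testes, against 4.59, 4.76, 4.75 and 4.72 in srKO testes (log2 difference 0.34 ± 0.10, adjusted p = 0.039), and of the 8 fits that left out 1 array only the one without prKO replicate 1 called it (adjusted p = 0.053 to 0.15 in the others). The melanocortin receptor gene Mc2r lay below the filter on dim genes and was not tested. Of 6 adrenal medulla genes 0 were called, with log2 differences from -0.10 to 0.15. The medulla marker Chga had log2 intensities of 6.75, 6.89, 6.65 and 6.89 in prKO testes, against 6.80, 6.76, 6.86 and 6.90 in srKO testes, with the groups overlapping. Any part of adrenal cortex cells in the steroidogenic values was not tested.

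Leydig cell identity genes rose in part. Of 10 tested genes 4 rose and 0 fell, and the same 4 were called in every fit that left out 1 array. Nr5a1, which encodes SF-1, the master regulator of steroidogenic cells and the gene whose promoter drives the Cre of prKO, had log2 intensities of 9.51, 9.37, 9.21 and 9.49 in prKO testes, against 8.77, 8.74, 8.74 and 8.58 in srKO testes. The prKO arrays were higher without overlap, by 1.61-fold (log2 difference 0.69 ± 0.08, adjusted p = 1.7e-05). Vcam1, a cell adhesion molecule, rose 2.54-fold (log2 difference 1.34 ± 0.18, adjusted p = 7.9e-05), the estrogen sulfotransferase gene Sult1e1 2.38-fold (log2 difference 1.25 ± 0.24, adjusted p = 0.0018), and Hsd11b1, which interconverts cortisone and cortisol, 1.38-fold (log2 difference 0.46 ± 0.11, adjusted p = 0.011). For Vcam1 the srKO arrays (8.55, 8.10, 8.87 and 8.41) lay mostly under the WT range (8.65 to 9.40). They all lay under the lrKO range (8.96 to 9.41), and the prKO arrays (9.54 to 10.26) lay above both ranges. Not called were Ptgds (0.42), Nr2f2 (0.08), Crhr1 (0.06), Gata6 (-0.13), Thbs2 (-0.14) and Dlk1 (-0.22), with adjusted p from 0.13 to 0.78. Lhcgr and Insl3 had no probe set with a single gene symbol and were not analysed here.

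Cholesterol synthesis, which supplies the substrate, also rose. Of 19 tested genes of the list, which also holds the regulators Srebf2 and Insig1 and the sterol carrier Stard4, 13 rose and 0 fell, all 13 of them enzymes, with a median log2 difference of 0.49, and 10 of the 13 were called in every fit that left out 1 array. Cyp51, the lanosterol demethylase, had log2 intensities of 8.99, 8.77, 9.00 and 9.73 in prKO testes, against 7.58, 7.73, 7.81 and 7.41 in srKO testes and rose 2.81-fold (log2 difference 1.49 ± 0.21, adjusted p = 0.00013). Nsdhl, which acts after it, had 10.06, 9.87, 9.90 and 10.47 in prKO testes, against 8.93, 8.92, 9.11 and 8.62 in srKO testes and rose 2.26-fold (log2 difference 1.18 ± 0.15, adjusted p = 4.5e-05). In both genes every prKO array exceeded every srKO array, and prKO replicate 4 was the highest. Sc5d (0.89 ± 0.13), Msmo1 (0.67 ± 0.12), Hsd17b7 (0.67 ± 0.16), Tm7sf2 (0.61 ± 0.11), Fdft1 (0.60 ± 0.14), Ebp (0.51 ± 0.12), Lss (0.49 ± 0.09) and Mvd (0.40 ± 0.09), which encode further enzymes of the route, rose by smaller log2 differences. The mean level of the 19 genes was 8.81, 8.69, 8.60 and 9.12 in prKO testes, against 8.29, 8.34, 8.36 and 8.09 in srKO testes. Of 8 genes of cholesterol uptake, storage and export 4 rose and 0 fell, a count of 2 without prKO replicate 4 or without srKO replicate 4. The lysosomal lipase gene Lipa rose 1.57-fold (log2 difference 0.65 ± 0.13, adjusted p = 0.0034) and Scarb1, the high-density lipoprotein receptor, 1.29-fold (log2 difference 0.36 ± 0.08, adjusted p = 0.0077).

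The promoter of Cyp51 is shown because this gene had the largest rise of the route and cholesterol enzymes share control through sterol regulatory elements. Capitals mark the letters ATCACNNCA, a form of that element, on either strand in the 250 bases before the start (RefSeq, GRCm38.p6, chr5:4104698-4104947, minus strand, 5′ to 3′).
Cyp51: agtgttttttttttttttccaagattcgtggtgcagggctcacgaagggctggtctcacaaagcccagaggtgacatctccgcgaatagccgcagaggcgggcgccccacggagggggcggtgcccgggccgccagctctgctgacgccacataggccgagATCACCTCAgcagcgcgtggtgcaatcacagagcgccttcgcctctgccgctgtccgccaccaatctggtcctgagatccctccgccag
The match begins 89 bases before the start. These letters occurred in 2.295% of 32851 windows and, among the 13 cholesterol enzymes that rose, 10 of which had a window, in Cyp51 and Msmo1. The forms ATCACNNCA and TGATGNAA were added after the promoter letters had been seen. The forms TCACNCCAC (1.053% of all windows) and TGACGTCA, the cAMP response element (1.546%), were found in 0 windows of the cholesterol enzymes, steroidogenic genes, matrix genes and 12 largest rises that were higher. The SF-1 letters CAAGGNCA (5.528%) were found in Dhcr7 and Dpt, and the antioxidant letters TGACNNNGC (10.161%) in Dhcr7, Col6a5, Col4a2 and Col6a2. No match says only that these letters are not in this window.

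Genes of cystine uptake and glutathione defence, to which Slc7a11 and Gpx3 belong, counted 7 higher and 0 lower of 12 tested, with a median of 0.37, and all 7 were called in every one of the 18 other settings. Nqo1, a quinone reductase, had log2 intensities of 6.36, 6.14, 6.13 and 6.48 in prKO testes, against 4.81, 5.29, 5.64 and 5.22 in srKO testes and rose 2.05-fold (log2 difference 1.04 ± 0.18, adjusted p = 0.00079). Gpx1 (0.64 ± 0.13), the heme oxygenase gene Hmox1 (0.62 ± 0.13), Slc3a2, the heavy chain that pairs with Slc7a11 (0.39 ± 0.09), and the sulfiredoxin gene Srxn1 (0.35 ± 0.08) rose by less than 1 log2 unit. The prKO and srKO arrays did not overlap in these 5 genes.

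Among genes of cAMP breakdown, 5 of 18 cyclic nucleotide phosphodiesterases rose and 0 fell, a count of 3 without prKO replicate 4, srKO replicate 2 or srKO replicate 3. Pde7b, which degrades cAMP, had log2 intensities of 9.87, 9.66, 9.46 and 10.46 in prKO testes, against 8.58, 8.66, 8.98 and 8.57 in srKO testes. The srKO arrays already lay above all WT arrays (6.19 to 7.32), and the prKO arrays lay above the srKO arrays, by 2.24-fold (log2 difference 1.16 ± 0.23, adjusted p = 0.0025). Pde10a showed the same order, with 8.72, 8.26, 8.47 and 8.71 in prKO testes, against 7.75, 7.58, 7.90 and 7.94 in srKO testes and WT arrays at 6.13 to 6.93 (log2 difference 0.75 ± 0.16, adjusted p = 0.0038). Pde3a rose 2.03-fold (log2 difference 1.02 ± 0.22, adjusted p = 0.0045), with its srKO arrays at or near the WT range (6.14 to 7.23). Among 19 tested targets of cAMP and its factor CREB, 1 was called higher and 1 lower, where 6.9% of all genes rose and 4.85% fell. The phosphatase gene Dusp1 rose 1.54-fold (log2 difference 0.63 ± 0.14, adjusted p = 0.0057), and Atf3 was at -0.43 ± 0.13 (adjusted p = 0.042), a call made in only 2 of the 8 fits that left out 1 array, those without prKO replicate 4 or srKO replicate 4 (adjusted p = 0.065 to 0.14 in the others). Among 8 PKA subunit and inhibitor genes Prkar1a alone was called.

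**Figure D2:**
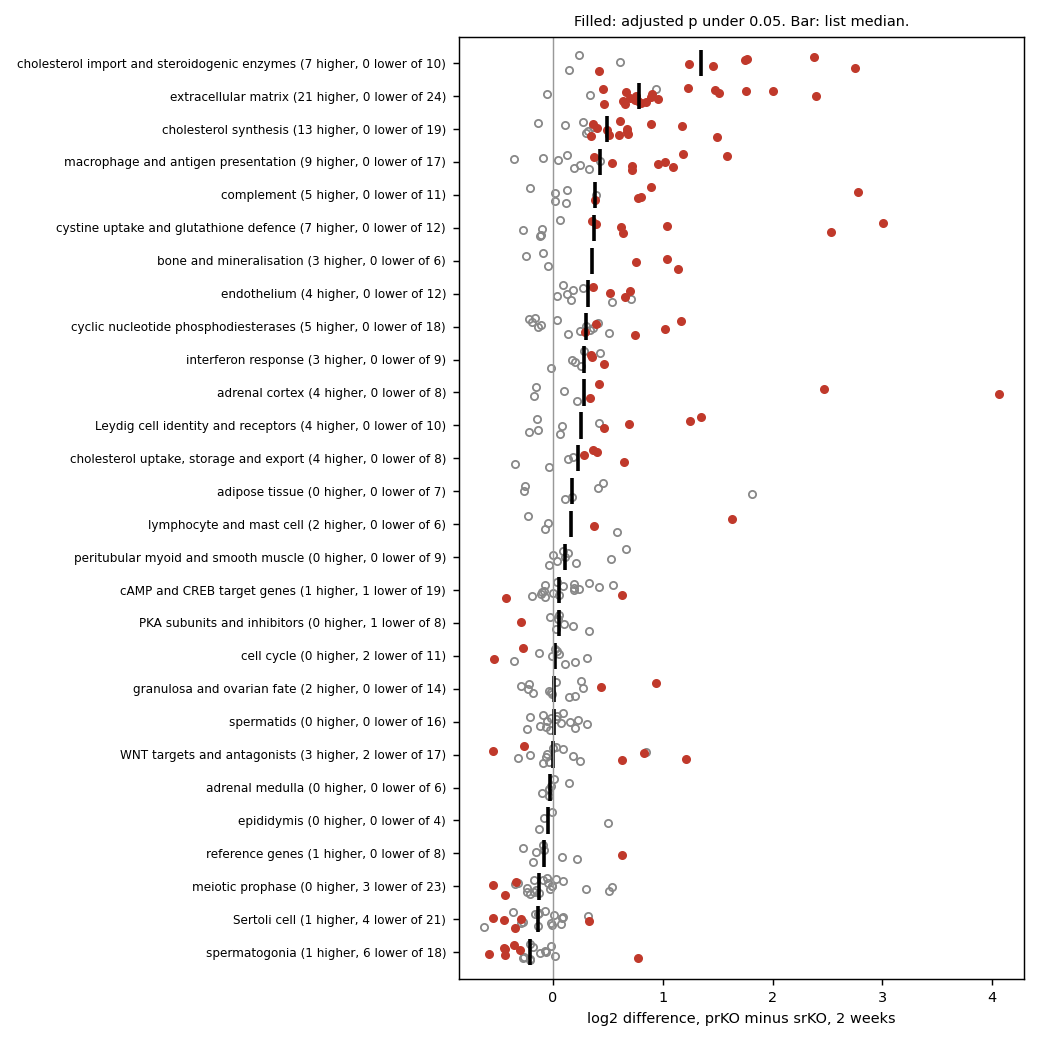
Log2 difference, prKO minus srKO at 2 weeks, of each member of 28 gene lists with at least 3 tested genes; each row gives its counts. Filled points passed an adjusted p of 0.05, open points did not, and black bars are list medians. Steroidogenic, matrix and cholesterol synthesis genes lie mostly to the right of 0, and spermatogonial genes mostly to the left.

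Extracellular matrix genes had the highest count of rises of the 29 lists. Of 24 tested 21 rose and 0 fell, with a median log2 difference of 0.79. Of the 21, 18 were called in every fit that left out 1 array, and 14 in every one of the 18 other settings. With probe sets averaged, Col1a2 (0.50, adjusted p = 0.058), Col6a1 (0.49, adjusted p = 0.067) and Col5a1 (0.35, adjusted p = 0.069) lost their calls. Dpt, the dermatopontin of collagen fibrils, had log2 intensities of 10.91, 10.77, 10.62 and 11.01 in prKO testes, against 8.65, 8.68, 8.83 and 7.56 in srKO testes and rose 5.27-fold (log2 difference 2.40 ± 0.45, adjusted p = 0.0017). Lum, a small leucine-rich proteoglycan, rose 4.01-fold (log2 difference 2.01 ± 0.36, adjusted p = 0.0012), the gelatinase gene Mmp2 3.37-fold (log2 difference 1.75 ± 0.22, adjusted p = 3.7e-05) and the crosslinking enzyme gene Lox 2.86-fold (log2 difference 1.51 ± 0.31, adjusted p = 0.0033). Ogn (1.47 ± 0.16) and Timp1 (1.23 ± 0.17) followed, and the fibrillar collagen gene Col3a1 (0.84 ± 0.19) and the basement membrane collagen gene Col4a1 (0.77 ± 0.13) rose by less than 1 log2 unit.

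The mean level of the 24 matrix genes was 10.45, 10.06, 10.09 and 10.53 in prKO testes, against 9.45, 9.42, 9.44 and 9.06 in srKO testes. All prKO arrays were higher than all srKO arrays, and srKO replicate 4 was the lowest. Of the WT arrays 7 lay between 9.03 and 9.42, and WT replicate 4 stood at 10.16, near the prKO level. Without srKO replicate 4, 19 of 24 matrix genes were called and the median was 0.72. Of 6 bone and mineralisation genes 3 rose and 0 fell, and the 3 were called in every fit that left out 1 array. They were the alkaline phosphatase gene Alpl (log2 difference 1.14 ± 0.17, adjusted p = 0.00021), the osteomodulin gene Omd (log2 difference 1.03 ± 0.17, adjusted p = 0.00052) and the bone sialoprotein gene Ibsp, whose srKO arrays all lay below 4.62 and which was at least 1.55-fold higher (adjusted p = 0.0015).

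Macrophage genes rose in part. Of 17 macrophage and antigen presentation genes 9 rose and 0 fell, with a median of 0.43. The hyaluronan receptor gene Lyve1 had log2 intensities of 9.51, 8.67, 9.16 and 9.66 in prKO testes, against 7.75, 7.76, 7.49 and 7.66 in srKO testes and rose 3-fold (log2 difference 1.59 ± 0.23, adjusted p = 0.00019). The scavenger receptor gene Cd163 had 5.79, 5.81, 5.88 and 6.26 in prKO testes, against 5.07, 5.03, 4.90 and 4.92 in srKO testes, with WT arrays at 4.88 to 5.17, and rose 1.94-fold (log2 difference 0.96 ± 0.10, adjusted p = 2.7e-06). In both genes all prKO arrays exceeded all srKO and WT arrays. The mannose receptor gene Mrc1 (1.18 ± 0.18), the growth factor receptor gene Csf1r (1.02 ± 0.14) and the complement C1q chain genes C1qb (1.10 ± 0.17) and C1qc (0.72 ± 0.15) also rose, and these 6 genes were called in every fit that left out 1 array.

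The antigen-presenting genes of the list, H2-Aa, H2-Ab1 and H2-Eb1, were not called. Their log2 differences were 0.04, -0.36 and -0.09 (adjusted p = 0.82, 0.27 and 0.58). The mean level of the 17 genes was 7.12, 7.08, 7.07 and 7.30 in prKO testes, against 6.67, 6.58, 6.52 and 6.66 in srKO testes. The WT arrays (6.65 to 7.03) and lrKO arrays (6.77 to 6.94) lay below all prKO arrays, and the srKO arrays stood at or under the low end of the WT range. Of 11 complement genes 5 rose and 0 fell, a count of 3 without prKO replicate 4, srKO replicate 2 or srKO replicate 3, and C7, the inhibitor gene Serping1 (0.89 ± 0.15) and the receptor gene C3ar1 (0.77 ± 0.13) were called in all of these. Of 12 endothelial genes 4 rose and 0 fell, a count of 2 without prKO replicate 4 or without srKO replicate 4. Pecam1 (log2 difference 0.71 ± 0.15, adjusted p = 0.0035) and Eng (log2 difference 0.66 ± 0.13, adjusted p = 0.0026), which mark vessel walls, were the 2 called throughout.

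**Figure D3:**
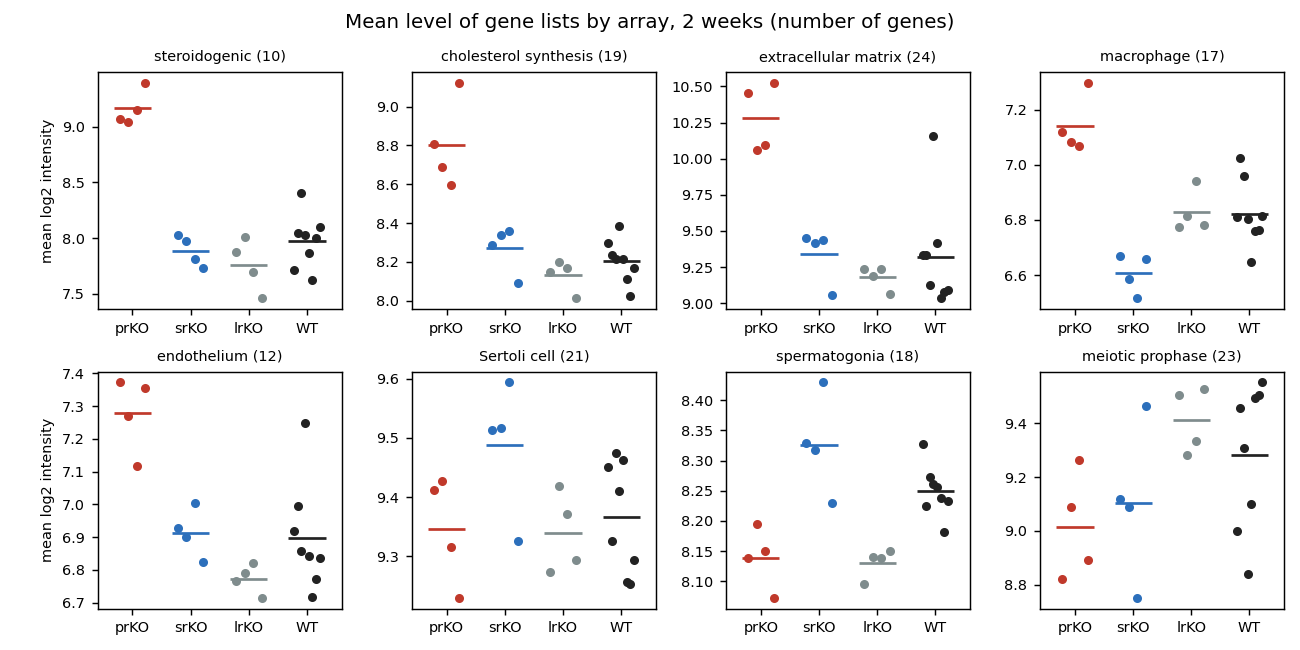
Mean log2 intensity of the members of 8 gene lists in each array at 2 weeks, with the number of genes averaged above each panel. Points are arrays and bars are group means (prKO, srKO and lrKO, 4 arrays each; WT, 8). The 4 prKO arrays exceed all srKO arrays in the steroidogenic, cholesterol synthesis, matrix, macrophage and endothelium panels and lie below all srKO arrays in the spermatogonia panel.

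Sertoli cells lose Prkar1a in both lines. Of 21 tested Sertoli cell genes 1 rose and 4 fell, with a median of -0.14, where 6.9% of all genes rose and 4.85% fell. Without srKO replicate 4 the list had 0 higher and 6 lower, and without prKO replicate 4 it had 2 called in all. Gdnf, the Sertoli cell growth factor for spermatogonial stem cells, had log2 intensities of 5.44, 5.46, 5.11 and 5.45 in prKO testes, against 5.87, 5.88, 5.96 and 5.95 in srKO testes. All prKO arrays lay below all srKO arrays and below the WT range (5.53 to 5.89), a 1.46-fold lower level (log2 difference -0.55 ± 0.09, adjusted p = 0.00079). Aard was 1.27-fold lower (log2 difference -0.35 ± 0.08, adjusted p = 0.0089). Amh, the anti-Müllerian hormone gene whose promoter drives the Cre of srKO, had log2 intensities of 6.90, 6.84, 6.72 and 6.53 in prKO testes, against 7.56, 7.23, 7.91 and 6.78 in srKO testes and did not pass the test (log2 difference -0.62 ± 0.21, adjusted p = 0.063). It was called without srKO replicate 4 (-0.82, adjusted p = 0.015) and under 4 settings that kept all arrays of both groups (adjusted p = 0.014 to 0.046).

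The follicle-stimulating hormone receptor gene Fshr was at -0.44 ± 0.13 (adjusted p = 0.036), Gata1 at -0.29 ± 0.08 (adjusted p = 0.019) and Espn at 0.33 ± 0.11 (adjusted p = 0.048). Fshr was not called without prKO replicate 1, prKO replicate 3, prKO replicate 4, srKO replicate 2 or srKO replicate 3 (-0.47 to -0.32, adjusted p = 0.053 to 0.14). Gata1 was not called without prKO replicate 4 or srKO replicate 1 (-0.26 to -0.21, adjusted p = 0.062 to 0.071). Espn was called in none of the 8 fits that left out 1 array (adjusted p = 0.052 to 0.14). The mean level of the 21 genes was 9.41, 9.43, 9.32 and 9.23 in prKO testes, against 9.51, 9.52, 9.59 and 9.33 in srKO testes, with overlap between the groups. Of 14 granulosa and ovarian genes 2 rose and 0 fell. One of them, Irx3, was at 0.44 ± 0.13 (adjusted p = 0.033) and lost its call on leaving out prKO replicate 1, prKO replicate 2, prKO replicate 4, srKO replicate 1 or srKO replicate 3 (0.36 to 0.45, adjusted p = 0.059 to 0.10). It was also lost with each array centred on its median and with the replicate block (adjusted p = 0.053 and 0.069), and the list's count of higher genes ran from 1 to 3 as each array was left out. Rspo1, the R-spondin that directs ovary development through WNT signalling, had log2 intensities of 8.61, 8.31, 8.24 and 8.46 in prKO testes, against 7.38, 7.56, 7.48 and 7.45 in srKO testes and rose 1.92-fold without overlap with srKO or WT arrays (7.33 to 8.01; log2 difference 0.94 ± 0.13, adjusted p = 0.00011). Foxl2, the granulosa cell regulator, was not called (log2 difference -0.02, adjusted p = 0.90). Of 17 WNT targets and antagonists 3 rose and 2 fell, 3 in all without prKO replicate 4. The secreted WNT antagonist genes Frzb (log2 difference 1.21 ± 0.15, adjusted p = 2.6e-05), Sfrp1 (log2 difference 0.83 ± 0.19, adjusted p = 0.0083) and Dkk3 (log2 difference 0.63 ± 0.14, adjusted p = 0.0062) rose and were called in every fit that left out 1 array. Sfrp1 lost its call in a fit of all 8 groups (adjusted p = 0.099). Another antagonist gene, Sfrp4, was at -0.55 ± 0.15 (adjusted p = 0.025), a call lost without prKO replicate 4 or srKO replicate 3 (-0.47 to -0.46, adjusted p = 0.085), and in a fit of all 8 groups (adjusted p = 0.21). The receptor-degrading ligase gene Znrf3 was at -0.27 ± 0.07 (adjusted p = 0.020), a call lost without prKO replicate 3, prKO replicate 4 or srKO replicate 1 (-0.25 to -0.24, adjusted p = 0.057 to 0.060), and in that wider fit (adjusted p = 0.094). The antagonist genes Sfrp2, Sfrp5, Dkk1, Dkk2 and Wif1 did not pass the test.

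Spermatogonial genes fell in part. Of 18 tested 1 rose and 6 fell, with a median of -0.21, and 4 were called without prKO replicate 4 or without srKO replicate 3. With probe sets averaged, Sall4 (-0.24, adjusted p = 0.20) and Uchl1 (-0.20, adjusted p = 0.13), both among the falls, lost their calls. Lin28a, an RNA-binding protein of undifferentiated spermatogonia, had log2 intensities of 6.66, 6.62, 6.68 and 6.53 in prKO testes, against 7.05, 7.38, 7.48 and 6.90 in srKO testes and was 1.5-fold lower (log2 difference -0.58 ± 0.12, adjusted p = 0.0037). Kit, the receptor of differentiating spermatogonia, had 9.42, 9.55, 9.36 and 9.23 in prKO testes, against 9.85, 9.76, 10.01 and 9.69 in srKO testes and was 1.35-fold lower (log2 difference -0.44 ± 0.08, adjusted p = 0.0017). In both genes the groups did not overlap, and the prKO arrays lay within the WT range or just under it (6.65 to 7.13 for Lin28a and 9.34 to 9.60 for Kit) while some or all srKO arrays lay above it. Etv5, a stem cell transcription factor that Sertoli cells also express, rose 1.71-fold (log2 difference 0.77 ± 0.14, adjusted p = 0.00098). Its log2 intensities were 8.01, 7.77, 7.72 and 7.81 in prKO testes, against 7.28, 7.03, 7.00 and 6.90 in srKO testes, with WT arrays at 6.88 to 7.60.

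Of 23 meiotic prophase genes 3 fell (Smc1b, Dmc1 and Syce2) and 0 rose, and 0 were called without srKO replicate 4, without prKO replicate 1 or without prKO replicate 4. Their mean level was 8.82, 9.09, 9.26 and 8.89 in prKO testes, against 9.12, 9.09, 8.75 and 9.46 in srKO testes, with full overlap. Of 16 spermatid genes and 9 peritubular myoid genes 0 were called. Of 11 cell cycle genes 2 fell, Top2a and the mitotic checkpoint kinase gene Bub1b (log2 difference -0.53 ± 0.11, adjusted p = 0.0032), of which Bub1b was called in every fit that left out 1 array. Adipose genes (0 called of 7) included Fabp4 at 1.81 ± 0.67 (adjusted p = 0.088), with log2 intensities of 6.28, 7.26, 5.54 and 6.93 in prKO testes, against 5.13, 4.85, 4.57 and 4.24 in srKO testes and WT arrays from 4.03 to 8.05. None of 4 epididymis genes passed the test, and of 8 reference genes 1, the lysosomal enzyme gene Gusb, was called. Of 9 interferon response genes 3 rose (Ifit3, Oasl2 and Rsad2) and of 6 lymphocyte and mast cell genes 2 rose (Cpa3 and Cd4), but none of these 5 genes, nor Top2a, was called in every fit that left out 1 array.

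The falls were smaller than the rises. Zfas1, a non-coding host gene of small nucleolar RNAs, led the 12 largest among named genes, small RNAs apart, with log2 intensities of 7.82, 7.89, 8.10 and 7.69 in prKO testes, against 9.07, 9.15, 9.07 and 8.63 in srKO testes, a 2.15-fold lower level (log2 difference -1.11 ± 0.23, adjusted p = 0.0038). The prKO arrays lay below all srKO arrays. However, WT replicates 1 to 4 stood at 7.68 to 8.03, at the prKO level, and WT replicates 5 to 8 at 8.71 to 8.87, near the srKO level. Tlcd1 (-1.06 ± 0.23), H4f16, a histone H4 gene (-1.03 ± 0.22), Bex2 (-0.94 ± 0.22), Ano4, an anoctamin (-0.88 ± 0.16), Ctnnd2, a neuronal delta-catenin (-0.87 ± 0.17), Zfp992 (-0.84 ± 0.16), Lsm7, a part of the spliceosome and RNA decay ring (-0.83 ± 0.16), Sptb, the beta spectrin (-0.81 ± 0.14), and Rab6b, a Golgi trafficking GTPase (-0.80 ± 0.17), were called under all 18 other settings. For Tlcd1 the log2 difference was -0.46 (adjusted p = 0.019) with its probe sets averaged. Bcan, a brain proteoglycan, was at -0.93 ± 0.24 and lost its call without srKO replicate 3 (-0.65, adjusted p = 0.059). Zfp984 was at -0.93 ± 0.26 and was not called without prKO replicate 2, prKO replicate 4, srKO replicate 2 or srKO replicate 3 (-0.93 to -0.71, adjusted p = 0.051 to 0.089). In 2 of the 12 falls, Bcan and Ano4, all prKO arrays lay below all WT arrays, and in Ctnnd2 all srKO arrays lay above all WT arrays.

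Small non-coding RNAs supplied 18 of the 27 genes that were at least 2-fold lower, and 1 of the 217 that were at least 2-fold higher. This class was picked out after its values were seen. It held 78 small nucleolar and Cajal body RNA genes, 5 Y and U small RNA genes and 284 microRNA genes of the 19007 tested. Of 78 small nucleolar and Cajal body RNA genes, which guide modification of ribosomal and spliceosomal RNA, 33 fell and 0 rose, 14 of them at least 2-fold, with a median of -0.43. Snord22 had log2 intensities of 9.79, 9.68, 10.00 and 8.88 in prKO testes, against 11.81, 11.60, 11.68 and 11.57 in srKO testes (-2.08 ± 0.42, adjusted p = 0.0030) and Snord11 7.54, 7.34, 7.70 and 7.43 in prKO testes, against 9.74, 9.74, 9.19 and 9.43 in srKO testes (-2.02 ± 0.36, adjusted p = 0.0011). Their mean level over 78 genes was 8.18, 8.21, 8.34 and 7.90 in prKO testes, against 8.74, 8.74, 8.80 and 8.57 in srKO testes. All prKO arrays lay below all srKO arrays and below the lrKO range (8.70 to 8.84), while WT replicates 1 to 4 stood at 8.24 to 8.51 and WT replicates 5 to 8 at 8.62 to 8.80. The WT arrays thus differed among themselves in the same genes. In the interferon response mean WT replicates 1 to 4 (6.01 to 6.22) lay above WT replicates 5 to 8 (5.84 to 5.90). The same order held in Cyp51 (7.86 to 8.09 against 7.13 to 7.60) and Gpx3 (6.58 to 8.14 against 6.25 to 6.46). So it did in the cystine and glutathione mean (7.92 to 8.17 against 7.68 to 7.79). It held in the endothelial mean (6.86 to 7.25 against 6.72 to 6.84). In the cholesterol synthesis mean it held narrowly (8.2153 to 8.3849 against 8.0233 to 8.2135). Prkar1a ran the other way (8.84 to 8.95 against 8.99 to 9.14). The steroidogenic means of these WT arrays overlapped (7.71 to 8.40 against 7.63 to 8.10). So did the matrix (9.13 to 10.16 against 9.03 to 9.42) and macrophage means (6.80 to 7.03 against 6.65 to 6.82). The part of the difference among WT arrays in the falls and rises was not tested. At 2 months the small nucleolar and Cajal body RNA genes ran the other way, with 22 higher and 2 lower in prKO than in srKO and a median of 0.26. Of 284 microRNA genes 8 rose and 13 fell, where 6.9% of all genes rose and 4.85% fell.

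**Figure D4:**
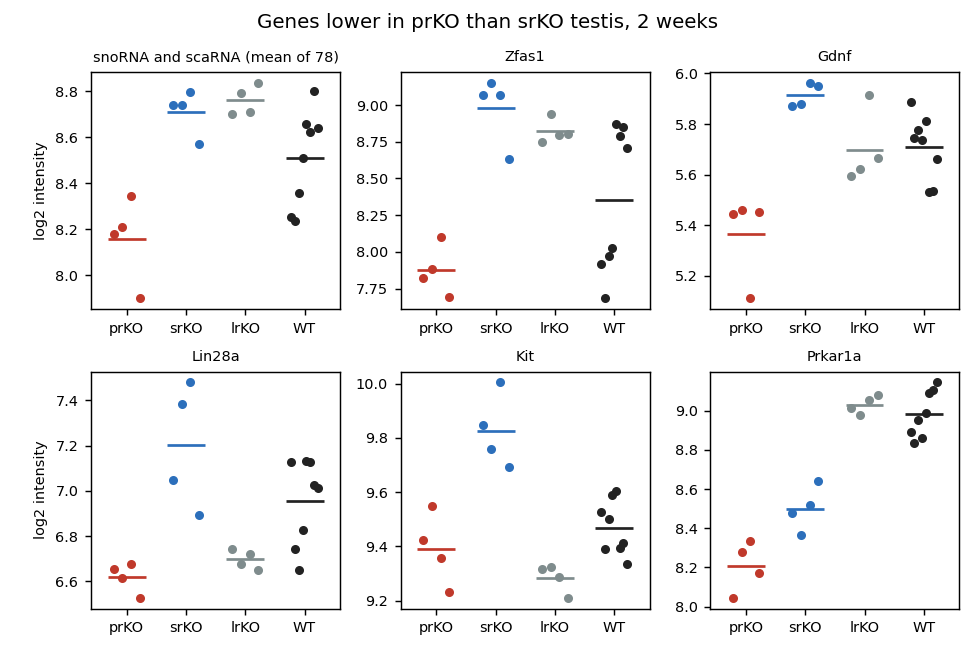
Log2 intensity at 2 weeks of the mean of 78 small nucleolar and Cajal body RNA (snoRNA and scaRNA) genes and of 5 genes lower in prKO, in each array (prKO, srKO and lrKO, 4 arrays each; WT, 8). Points are arrays and bars are group means. The 4 prKO points lie below the 4 srKO points in every panel. In the Zfas1 panel some WT points lie at the prKO level and the others near the srKO level. In the small RNA panel the WT points cover the srKO level, and of the prKO points only replicate 3 lies within their range.

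The same comparison was made at 2 months in other samples, 3 prKO and 4 srKO arrays. There 4860 genes were called (25.6%), 2556 higher (13.4%) and 2304 lower (12.1%). Of the 1312 genes higher at 2 weeks 620 were also higher at 2 months, which is 47.3% of the calls at 2 weeks and 24.3% of those at 2 months, and 22 were lower (1.68%). Of the 922 genes lower at 2 weeks 183 were also lower (19.8% of the calls at 2 weeks and 7.94% of those at 2 months), and 46 were higher (4.99%). Among all genes tested the shares called at 2 months were 13.4% higher and 12.1% lower.

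By list, 20 of the 21 matrix genes and 11 of the 13 cholesterol enzymes that rose at 2 weeks were also higher at 2 months, and so were 3 of the 7 steroidogenic genes, Cyp11a1, Star and Fdx1, and all 4 adrenal cortex genes. Cyp11b1, near the dim end of the scale at 2 weeks, was at 2.11 ± 0.34, adjusted p = 0.00039 at 2 months. Of the 9 macrophage genes 3 were higher at both ages. Hsd3b6 was called in the opposite direction at 2 months (-1.98 ± 0.35, adjusted p = 0.00069).

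For the 24 genes named by size the difference between the ages was itself tested. Their choice used the same 2-week values, which favours a smaller difference at 2 months. Gpx3 (3.03 ± 0.30, adjusted p = 4.4e-06 at 2 months), Il33 (2.57 ± 0.22, adjusted p = 7.8e-07) and Ly6d (2.42 ± 0.20, adjusted p = 7.8e-07) had log2 differences close to those at 2 weeks. The difference was smaller at 2 months for Cyp21a1 (change between ages -2.51, adjusted p = 0.00060), Slc7a11 (-1.81, adjusted p = 0.0023), Cyp11a1 (-1.82, adjusted p = 0.00010), C7 (-2.41, adjusted p = 0.00063) and Cd36 (-1.57, adjusted p = 0.016). With probe sets averaged, the 2-month log2 difference was 0.69 for Slc7a11 and 0.53 for Cyp11a1, against 1.63 and 1.46 at 2 weeks, and the change between ages was not tested on those values. For Lcn2 no difference passed the test at 2 months (-0.24 ± 0.16, adjusted p = 0.30, change -3.17, adjusted p = 0.00049). Its 2-month arrays spanned 11.035 to 11.475 in prKO testes and 11.249 to 11.837 in srKO testes, above all of 2 weeks. In srKO testes C7 spanned 10.847 to 11.616 at 2 months, against 6.75 to 7.77 at 2 weeks. For Cyp11a1 the srKO arrays spanned 10.951 to 11.574, against 9.13 to 9.41. In Slc7a11, Cd36 and Cyp21a1 all srKO arrays were also higher at 2 months. The prKO arrays of the 2 ages overlapped except in C7 and Lcn2, where they were higher at 2 months. For Cyp21a1 the prKO arrays at 2 months spanned 7.08 to 8.46, against 5.92 to 7.34 in srKO testes, so the srKO level was above the dim range there. Among the falls Ctnnd2 (-0.40 ± 0.10, adjusted p = 0.0061) and H4f16 (-0.51 ± 0.18, adjusted p = 0.041) were called again at 2 months.

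**Figure D5:**
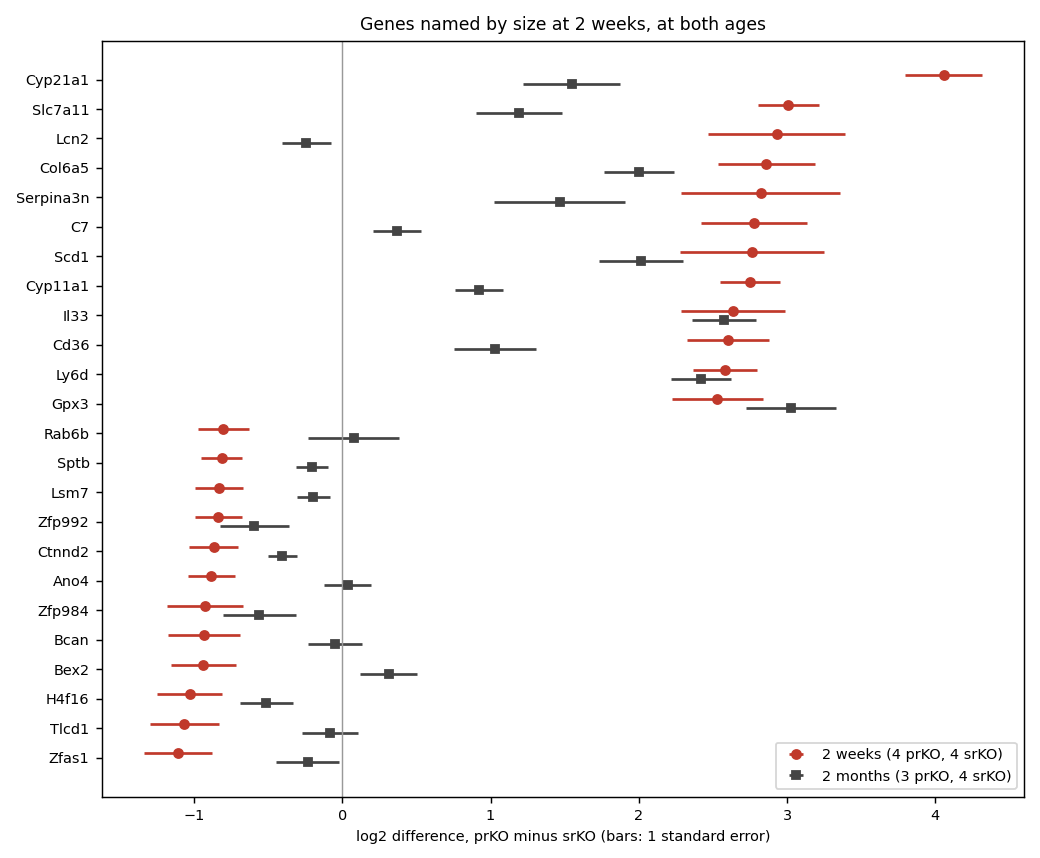
Log2 difference, prKO minus srKO, of the 12 rises and 12 falls named by size at 2 weeks (circles, 4 prKO and 4 srKO arrays) and the same genes at 2 months (squares, 3 prKO and 4 srKO arrays), with bars of 1 standard error. All rises but Lcn2 lie to the right of 0 at both ages, and each of the falls is smaller in size at 2 months. Choosing genes by their size at 2 weeks favours smaller differences at 2 months.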

How the data were processed

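RNA of whole testes was measured on arrays, and the authors deposited 1 table of log2 values of 41345 probe sets in 39 arrays, normalized by RMA per the labels; the sources used here name neither its version nor its settings. The table holds no background measure, so a gene was tested where 1 of the 8 group means exceeded 4.62, the 25th percentile of all values. Probe sets were named through GEO's platform annotation: 23521 had 1 gene symbol, 1814 several and 16010 none listed here, and 23328 matched the current gene table, which changed 0 symbols. Of 22180 genes 1082 had more than 1 probe set, and the brightest on average was kept. limma 3.58.1 in R 4.3.3 (lmFit and eBayes) fitted all 20 arrays of 2 weeks (4 prKO, 4 srKO, 4 lrKO, 8 WT) with prKO minus srKO as the contrast, and the 19 arrays of 2 months alike. Adjustment was by Benjamini-Hochberg over 19007 genes, and ± is the standard error. The fit was tested on simulated data. Precision is limited by how many arrays each group has. The text names the 12 largest called rises and falls whose arrays do not overlap and members of each list that were called or had its 4 largest differences; model and clone names, small RNAs and olfactory, vomeronasal and taste receptors were passed over, and other genes are said to be chosen after their values were seen. The 29 lists (406 genes, 352 tested) and the comparison were chosen with earlier results of these data known. Alternatives were the filter, the probe set rule, normalization, centring, array weights, the eBayes options, the arrays fitted, the replicate number as a block and each array left out. Promoters are those of RefSeq (GRCm38.p6). Figures were drawn with matplotlib 3.10.9.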

Additional observations from a re-analysis of the deposited data

Results flagged for a closer look

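In groups of 4 arrays, one array lay far from the other 3, measured as its gap to the nearest array divided by the range of the group. Chance gives such a gap in about 1 in 20 groups. The prKO replicate 4 was the highest of its group for Ly6d (0.843), Star (0.851), Msmo1 (0.855), Tm7sf2 (0.962), Fdft1 (0.862), Sqle (0.922) and the mean level of the cystine uptake and glutathione defence genes (0.862), so 4 of these are cholesterol enzymes. The other prKO arrays that stood off were replicate 1 for Lsm7 (0.843), Dkk3 (0.84), Srxn1 (0.909) and Rsad2 (0.913), replicate 2 for Ccna2 (0.848) and replicate 3 for Ano4 (0.9), Gdnf (0.955) and Adam7 (0.939).

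Among srKO arrays replicate 4 stood off for Zfas1 (0.843), Sfrp1 (0.84), Msmo1 (0.93), C2 (0.832), Dpt (0.859), Lhx2 (0.859), Syce2 (0.94), Ldhc (0.864) and the mean level of the matrix genes (0.905). Replicate 1 did so for Tie1 (0.884), Adam7 (0.839) and Sparc (0.863), replicate 2 for Adam28 (0.904) and replicate 3 for Bub1 (0.845) and Oasl2 (0.956).

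The prKO minus srKO difference changed with age in 11 of the 24 genes named by size. These 24 were chosen by their size at 2 weeks, which favours a smaller difference at 2 months. The share of all genes that changed with age was not counted. As 2 months minus 2 weeks on the log2 scale, it changed for Cyp21a1 (-2.51, adjusted p = 0.00060), Slc7a11 (-1.81, adjusted p = 0.0023), Lcn2 (-3.17, adjusted p = 0.00049), C7 (-2.41, adjusted p = 0.00063), Cyp11a1 (-1.82, adjusted p = 0.00010) and Cd36 (-1.57, adjusted p = 0.016), all smaller at 2 months. It also changed for Tlcd1 (0.981, adjusted p = 0.047), Bex2 (1.25, adjusted p = 0.011), Ano4 (0.92, adjusted p = 0.012), Lsm7 (0.637, adjusted p = 0.048) and Sptb (0.61, adjusted p = 0.031), whose falls at 2 weeks were absent or smaller at 2 months.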

How the results depend on the processing

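All 12 rises and 10 of the 12 falls named by size were called in the same direction under every one of the 18 other settings, Bcan and Zfp984 being the exceptions. With a gene's probe sets averaged, 3 of these sizes moved by over 1.5 times: the log2 difference was 1.63 for Slc7a11, 1.46 for Cyp11a1 and -0.459 for Tlcd1, against 3.01, 2.75 and -1.06 with the brightest probe set. The number of genes called was 2208 with no filter on dim genes, 2298 with the stricter filter and 2398 after a further quantile normalization, but 3650 with array weights (1925 higher and 1725 lower). Leaving out 1 array gave 1415 calls (without prKO replicate 4) to 1858 (without srKO replicate 4). With the replicate number as a block 2366 genes were called (1440 higher and 926 lower). Same-numbered prKO and srKO arrays deviated together in 1 of 4 pairs (correlations -0.228 to 0.16), and no prKO array matched its own number best. These correlations gave no sign that the numbers pair the samples, but 4 pairs are too few to exclude it. Of the genes called at 2 weeks 803 were called in the same direction at 2 months, against 334 when only the prKO and srKO arrays were fitted; fewer arrays set the spread there, and leaving out arrays was not run for this count. Reversed signs were seen only in differences that were not called. These were, with arrays left out, Dbh (-0.112 to 0.0469), Chga (-0.0682 to 0.0143), Adam7 (-0.2 to 0.766), Lcn8 (-0.165 to 0.0057) and Lcn9 (-0.0939 to 0.044; 0.00194 after quantile normalization), and, at 2 months, Zfas1 (0.166 with probe sets averaged), Bcan (0.133 with array weights), Ano4 (-0.0121 after quantile normalization and -0.0511 after centring) and Rab6b (-0.0125 after centring and -0.0626 with array weights). The cause was not tested. With 4 arrays a group, 66% of 50 simulated differences of 0.5 log2 units and 94% of 50 of 1 unit were recovered in a fit of 19007 genes, so smaller differences may be missed.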

Other observations

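Several further genes were among the largest differences and were picked out after their values were seen. Lpl, the lipoprotein lipase, had log2 intensities of 9.02, 8.99, 8.79 and 9.29 in prKO testes, against 6.97, 7.12, 7.41 and 6.91 in srKO testes (log2 difference 1.92 ± 0.19, adjusted p = 2.7e-06), and the endothelial lipase gene Lipg (1.70 ± 0.23, adjusted p = 7.9e-05) and the fatty acid elongase gene Elovl6 (1.12 ± 0.27, adjusted p = 0.011) were also higher. In all 3 genes the prKO arrays lay above the srKO arrays. Of 7 Elovl genes 4 were higher and 0 lower, and of 7 tested adipose tissue genes 0 passed the test in either direction. Detoxifying and redox genes included Xdh, the xanthine dehydrogenase (8.17, 7.82, 7.82 and 8.60 in prKO testes, against 5.88, 5.86, 5.50 and 5.90 in srKO testes, log2 difference 2.32 ± 0.19, adjusted p = 1.7e-07), Cyp1b1 (2.24 ± 0.24, adjusted p = 4.8e-06) and the paraoxonase gene Pon3 (2.17 ± 0.19, adjusted p = 5.7e-07). Lbp, the lipopolysaccharide-binding protein gene, had 10.58, 10.51, 10.46 and 10.96 in prKO testes, against 8.55, 8.20, 8.20 and 8.63 in srKO testes (2.23 ± 0.12, adjusted p = 1.4e-09), and Apln, which encodes the vascular peptide apelin, was at 2.25 ± 0.21, adjusted p = 8.7e-07. These 8 genes were called in every fit that left out 1 array. Of 22 Adamts and Adamtsl protease and protease-like genes 7 were higher and 0 lower, and 3 of the 7 (Adamts15, Adamts17 and Adamtsl2) were called in every fit that left out 1 array, led by Adamtsl2 (1.70 ± 0.12, adjusted p = 3.3e-08).

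Tsx, a testis-expressed gene of the X chromosome, had log2 intensities of 11.38, 11.43, 11.14 and 11.27 in prKO testes, against 9.64, 9.41, 8.85 and 10.01 in srKO testes, with WT arrays from 9.48 to 11.41 (1.82 ± 0.31, adjusted p = 0.00067). The prKO arrays lay at the top of the WT range and the srKO arrays at its lower end or under it. Trim12a had 7.78, 8.05, 8.04 and 7.97 in prKO testes, against 5.02, 5.16, 7.23 and 5.11 in srKO testes, so 1 srKO array stood near the prKO level, and the WT arrays ran from 4.68 to 8.30. Of 11 Klk1 kallikrein genes, whose near-identical members a probe set may not separate, 2 were higher in prKO, where 6.9% of all genes rose. They were Klk1b24 (2.29 ± 0.41, adjusted p = 0.0011) and Klk1b27 (1.62 ± 0.33, adjusted p = 0.0034). In Klk1b24 the WT (5.78 to 7.92) and lrKO arrays (7.03 to 8.31) overlapped the prKO arrays (7.84 to 8.86). Its srKO arrays stood at 5.36 to 6.59. In Klk1b27 the WT and lrKO arrays reached 5.31 and 5.28, above the lowest prKO array (5.14).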
